A study of Homo sapiens with 94 samples.

Results

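The 10 genes DUSP4, DUSP5, DUSP6, SPRY2, SPRY4, SPRED1, ETV4, ETV5, PHLDA1 and EPHA2 were followed through a single-dose experiment with the TEAD inhibitor K-975. They are transcriptional readouts of ERK signaling, a route by which cells can bypass inhibition of TEAD, and were taken by symbol from the expression table, without use of their measured values. The study's own signature of YAP1-TEAD activity lists EPHA2 among its positive effectors, genes whose RNA rises with that activity. It lists DUSP6 and SPRY4 among its negative effectors, so these 3 are not readouts of ERK alone. All 10 were found among 20239 gene IDs, and all 10 passed the filter on low values, which asked for 4 or more tumors with 1 FPKM or more. FPKM is the number of fragments scaled to the length of the transcript and to the mapped total of the library.

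When a growth factor receptor activates RAS, the kinases RAF, MEK and ERK are switched on in turn, and ERK then drives a set of immediate and delayed genes. Several of these genes code for proteins that restrain the same pathway, so their transcript levels follow the output of the pathway and feed back on it. ETS transcription factors carry part of this output, and the repressor CIC holds several of the genes down until ERK relieves it.

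The tumors were xenografts of NCI-H226, an established human pleural mesothelioma cell line with a deletion of NF2, grown under the skin of female SCID mice, which lack mature T and B cells. NF2 acts upstream of the Hippo kinases, and its loss leaves the co-activators YAP1 and TAZ free to work with TEAD transcription factors. K-975, a covalent inhibitor that occupies the palmitate pocket of TEAD, was given once by mouth at 30, 100 or 200 mg/kg. Controls received the vehicle (ethanol, Solutol and glucose) or nothing.

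Each of the 94 tumors was from its own mouse, and they made up a 1 h, a 3-6 h and a 24 h study. At 1 h each of the 5 arms (untreated, vehicle and 3 doses) had 5 tumors, and at 24 h each had 5 except vehicle, which had 4. The 3-6 h study held 10 tumors per dose and for vehicle, from 2 cage groups of 5 mice each, and 5 untreated tumors. The labels name cage groups, called cages below, and do not say how the mice of a group were housed. Which of its cages were taken at 3 h or at 6 h is not in the labels. The dosing volume was 20 mL/kg for vehicle and 200 mg/kg but 10 mL/kg for the lower doses. In the 1 h and 24 h studies every arm was 1 cage group, so that treatment cannot be told apart from cage group, nor time after the dose from study.

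Of the 94 libraries, 91 held 11344 to 11665 genes at 1 FPKM or more. The other 3 held 702 (30 mg/kg at 24 h), 7196 (100 mg/kg at 24 h) and 8531 (200 mg/kg at 1 h). These 3 libraries were left out of the values below, so n is 4 in those groups. Calls lost or gained with all 94 libraries are given with the genes concerned. Sequencing depth is unknown, because the values are not counts. The line was recognised by its mesothelial genes, with medians of 612 FPKM for CALB2 and 255 FPKM for MSLN, and by NF2, which was listed at 0 in 80 of 91 tumors and never exceeded 0.244 FPKM. CDKN2A and CDKN2B, neighbours at a locus that many mesotheliomas lose, were detected, with medians of 1.18 and 14.6 FPKM. Among markers of other cell types 3 were high, with medians of 560 FPKM for COL1A1 (fibroblast list), 139 FPKM for CD68 (myeloid list) and 63.9 FPKM for KDR (endothelial list). The other markers of these lists and of T cells, B cells and red cells had medians of 0 to 2.59 FPKM, among them 0 for PECAM1 (endothelium), LYZ (myeloid), CD3E, MS4A1 and HBB, 0.168 for PTPRC (leukocytes) and 0.717 for DCN (fibroblasts). In such bulk samples fewer cells of a type and less RNA per cell cannot be told apart.

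Promoter letters are shown for SPRY2 and EPHA2 because their windows lie outside exons or nearly so. The series bears on ETS, CIC and TEAD factors, whose cores are found in these windows. The RefSeq table (GRCh38.p14) held 6 of the 10 genes, DUSP6, SPRY2, SPRY4, SPRED1, PHLDA1 and EPHA2. The other 4, DUSP4, DUSP5, ETV4 and ETV5, are named only. In the 250 bases before the start, both strands were searched for an ETS core (CCGGAA), a CIC octamer (TGAATGAA or TGAATGGA), a TEAD core (GGAATG) and an AP-1 site (TGANTCA). These were present in 14.8%, 2.25%, 11.9% and 6.60% of 27305 promoters. An ETS core was found in SPRY2, at position -142 from the start, and in PHLDA1, at -89. EPHA2 held a TEAD core, read on the opposite strand, at -73 and a CIC octamer at -34. No AP-1 site was found in the 6 windows. In GENCODE 29 the SPRY2 window lies outside exons and 18 bases of the EPHA2 window lie in one, while those of DUSP6, SPRED1 and PHLDA1 lie wholly and that of SPRY4 partly in exons of the gene models. In the sequences below, which are the minus strand of chr13:80341127-80341376 and chr1:16156070-16156319, read 5′ to 3′, capitals mark these cores.
SPRY2: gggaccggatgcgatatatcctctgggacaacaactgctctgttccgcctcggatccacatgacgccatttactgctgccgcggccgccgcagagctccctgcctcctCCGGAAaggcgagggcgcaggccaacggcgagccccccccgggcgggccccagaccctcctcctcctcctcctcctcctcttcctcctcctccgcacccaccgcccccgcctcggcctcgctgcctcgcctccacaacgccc
EPHA2: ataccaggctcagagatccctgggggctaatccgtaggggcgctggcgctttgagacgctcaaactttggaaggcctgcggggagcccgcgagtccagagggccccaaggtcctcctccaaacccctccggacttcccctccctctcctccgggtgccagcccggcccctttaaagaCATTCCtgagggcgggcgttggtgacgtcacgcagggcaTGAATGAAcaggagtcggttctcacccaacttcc
A match of letters is a description and not a site shown to be bound.

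The 10 genes differed widely in level. EPHA2, a receptor tyrosine kinase for ephrins (chromosome 1, 16124337 to 16156087, GRCh38), had a median of 93.3 FPKM over 91 tumors, with a range of 73.6 to 127 and a within-group coefficient of variation (CV) of 11.2%. SPRED1 (chromosome 15, 38252326 to 38357249), which keeps RAF from activation and works with the RAS inactivator neurofibromin, had 11.7 FPKM with a CV of 15.4%. The ETS transcription factors ETV4 (chromosome 17, 43527844 to 43579620) and ETV5 (chromosome 3, 186046308 to 186109112) had 11.0 and 10.2 FPKM with CVs of 22.9% and 25.6%. PHLDA1 (chromosome 12, 76025447 to 76033932), an ERK-induced protein of the pleckstrin homology-like family, had 9.23 FPKM and ranged from 2.72 to 21.7.

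The phosphatase and Sprouty genes among the 10 were low. DUSP6 (chromosome 12, 89347232 to 89353271), the cytoplasmic phosphatase of ERK, had a median of 2.75 FPKM and a range of 0.203 to 8.96, with a CV of 52.1%. DUSP5 (chromosome 10, 110497838 to 110511544), a nuclear phosphatase of ERK, had 2.65 FPKM with a CV of 53.7%. DUSP4 (chromosome 8, 29333064 to 29350668), also nuclear, had 1.58 FPKM. SPRY4 (chromosome 5, 142310427 to 142326455) and SPRY2 (chromosome 13, 80335976 to 80340951), Sprouty proteins that block signaling between receptors and RAF, had 2.14 and 1.84 FPKM with CVs of 38.5% and 37.2%. FPKM is a level per length, but transcripts were enriched with capture probes, which can affect genes unequally. At such low levels the log2(FPKM + 1) scale, on which differences are given, understates a fold change.

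**Figure D1:**
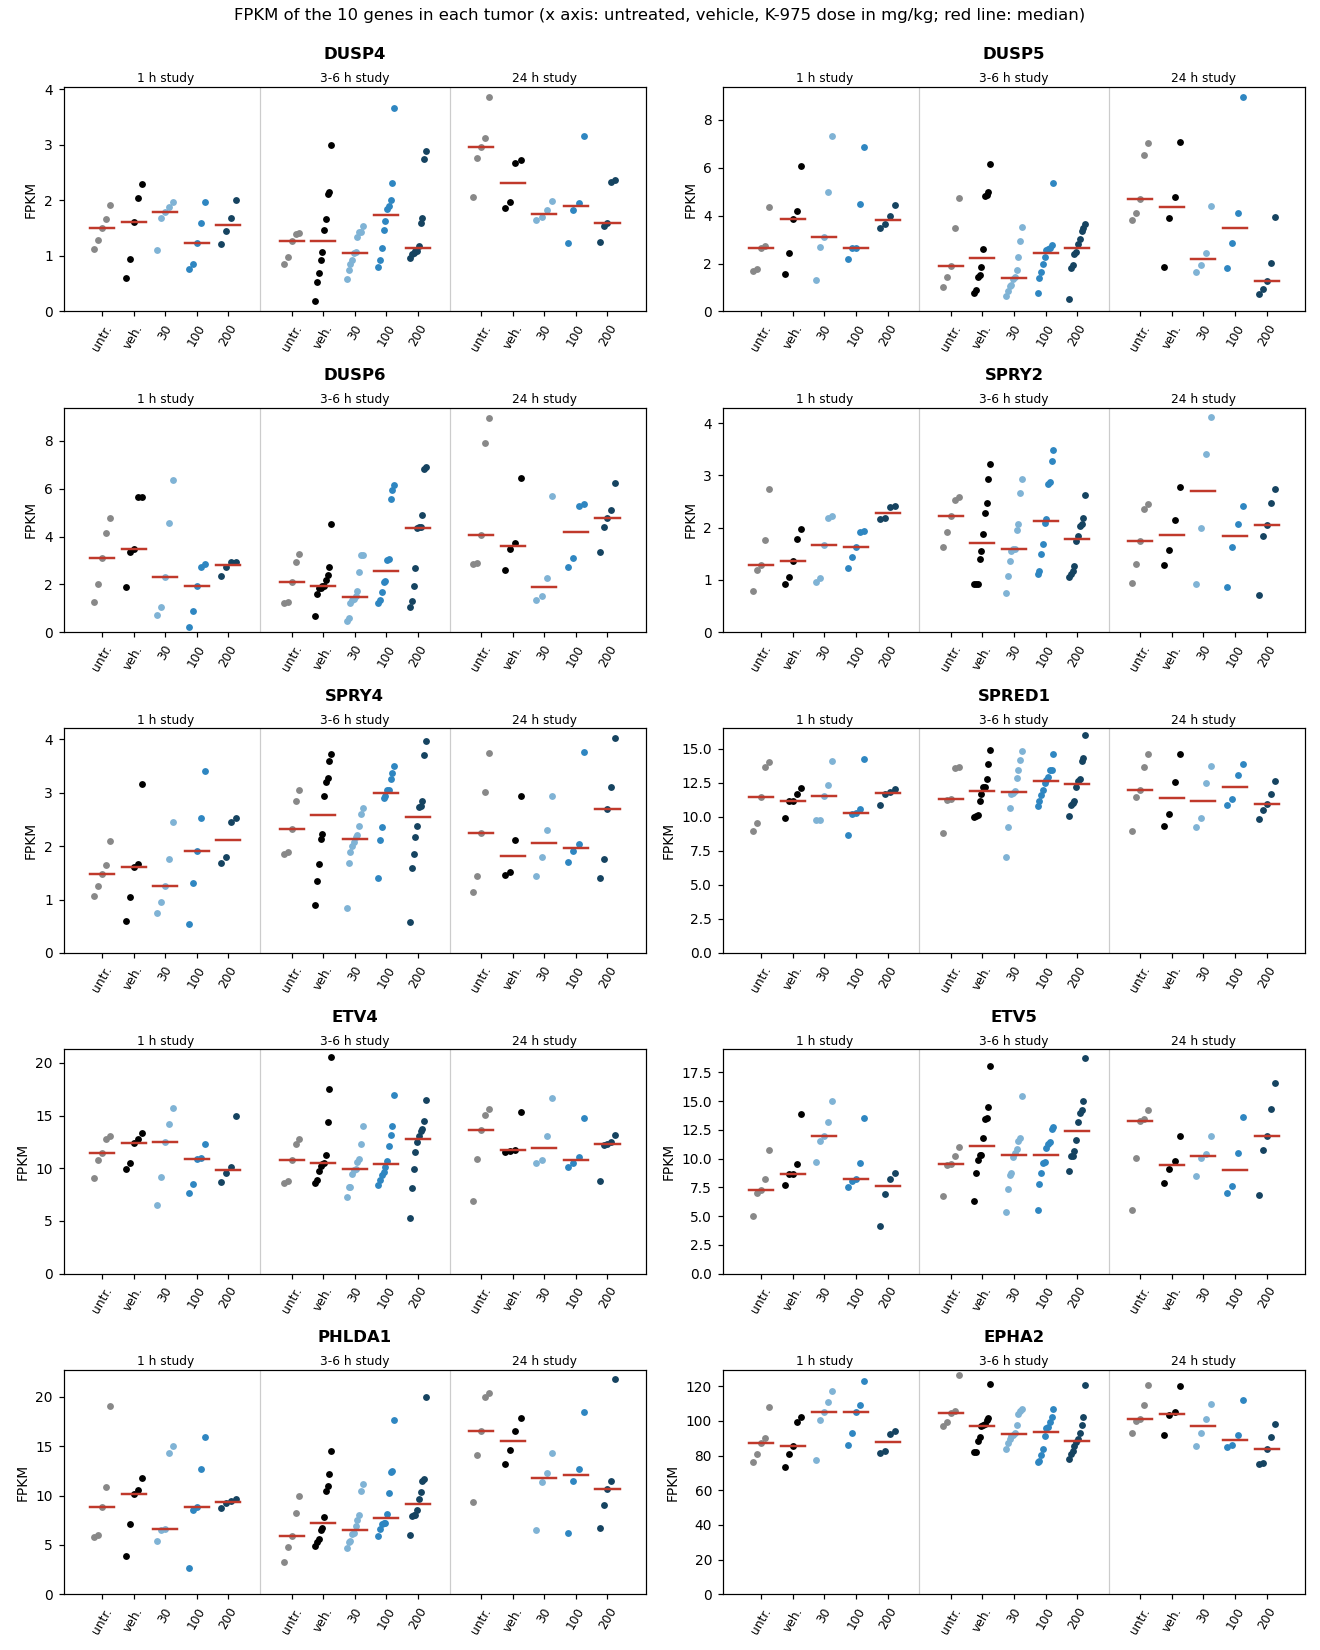
FPKM of the 10 genes (1 panel each, linear axis from 0) by treatment and study, 1 point per tumor of the 91 libraries, with a line at each group's median. Treated and vehicle tumors overlap in nearly every panel, and DUSP4, DUSP5, DUSP6 and PHLDA1 sit higher in control tumors of the 24 h study than of the 3-6 h study.

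Whether K-975 moved these readouts was asked by comparing each dose with vehicle in each study, with limma across 13036 genes and Benjamini-Hochberg adjustment. None of the 10 genes passed an adjusted p of 0.05 in any of the 9 comparisons of a dose with vehicle. With all 94 libraries 2 passed at 30 mg/kg and 24 h, where 22.7% of all genes did and the added library listed all 10 genes at 0. Of these 90 tests, 6 had an unadjusted p under 0.05, and 80 had a 95% interval lying wholly within a log2 difference of 1 in either direction. On the log2(FPKM + 1) scale, which understates fold changes at low levels, such an interval does not exclude a doubling in the low genes. At 24 h the share of all genes past the threshold was 7.41% for 200 mg/kg (3.8% higher and 3.61% lower), 1.12% for 100 mg/kg (0.583% and 0.537%) and 0.0384% for 30 mg/kg (0.0307% and 0.00767%). At 3-6 h it was 0.069% for 200 mg/kg (0.0153% higher and 0.0537% lower), 0.43% for 100 mg/kg (0.13% and 0.299%) and 0.0153% for 30 mg/kg. At 1 h it was 0%, 0.00767% and 0%. Established TEAD targets passed in the same tumors, CCN1 at 200 mg/kg with a log2 difference of -1.26 at 24 h and -0.72 at 3-6 h (limma adjusted p = 1.23e-05 and 0.00223), and CCN2 with -1.44 and -0.63 (2.11e-06 and 0.0338). With all 94 libraries none of these 4 calls remained (limma adjusted p = 0.153 and 1 for CCN1, 0.147 and 1 for CCN2), and 0% of all genes passed at 200 mg/kg in either study.

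At 200 mg/kg and 24 h, 0 of the 10 genes were called and 2 had an unadjusted p under 0.05, against 21.9% of all genes. The median log2 difference of the 10 was -0.067, against 0.037 for all genes, and 7 of the 10 lay below 0. EPHA2 came nearest to the threshold. It stood at 91.9, 103, 105 and 120 FPKM with vehicle and at 75.2, 75.5, 84.0, 90.7 and 98.5 FPKM with 200 mg/kg. The groups overlapped by 1 treated tumor, and 4 of 5 lay below all vehicle tumors. In log2 terms EPHA2 differed by -0.31, with a 95% interval of -0.52 to -0.10 and a limma adjusted p of 0.0588.

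DUSP5, the nuclear ERK phosphatase, had the largest difference. Its vehicle tumors held 1.87, 3.92, 4.79 and 7.09 FPKM, and its treated tumors 0.724, 0.927, 1.29, 2.04 and 3.96 FPKM. The treated tumors were mostly low, with 3 of 5 below all vehicle tumors, while 2 of the 4 vehicle tumors lay inside the treated range. The log2 difference was -0.97 (95% interval -1.70 to -0.25, limma adjusted p = 0.0836).

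Whether these 2 genes passed depended on the control. Untreated tumors at 24 h had 3.81, 4.11, 4.70, 6.53 and 7.05 FPKM of DUSP5 and 93.0, 100.0, 101, 109 and 121 FPKM of EPHA2. With them in place of vehicle, DUSP5 was lower at 200 mg/kg with a log2 difference of -1.24 (limma adjusted p = 0.0142), and so was EPHA2 with -0.30 (adjusted p = 0.0419). With vehicle and untreated tumors pooled, a choice made after the values had been seen, the adjusted p was 0.00837 and 0.0127. Over all alternatives it ranged from 0.00837 to 0.937 for DUSP5 and from 0.0127 to 1 for EPHA2, with the upper ends from the 94 libraries. Leaving out vehicle replicate 4, the tumor lowest in both genes, gave 0.0359 and 0.0349, and leaving out replicate 2 of 200 mg/kg, the treated tumor highest in both, gave 0.0238 and 0.0207. In 7 of the 9 fits without 1 tumor neither gene passed, with limma adjusted p = 0.285 and 0.224 without vehicle replicate 1. With only the groups compared it was 0.141 and 0.122. EPHA2 also passed when each library was centred on its median (log2 difference -0.34, adjusted p = 0.0275).

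Other measures moved with treatment at 24 h. The number of genes reaching 1 FPKM was 11356 to 11422 with vehicle, 11344 to 11443 in untreated tumors and 11424 to 11613 with 200 mg/kg. The summed level of 8 mesothelial genes was 2192 to 2243 FPKM with vehicle, 1942 to 2637 in untreated tumors and 2334 to 2844 with 200 mg/kg, and 3 of the 8 genes passed as higher by limma. None of 4 myeloid, 3 endothelial and 4 fibroblast genes tested passed. The part of these measures in the DUSP5 and EPHA2 differences was not tested.

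**Figure D2:**
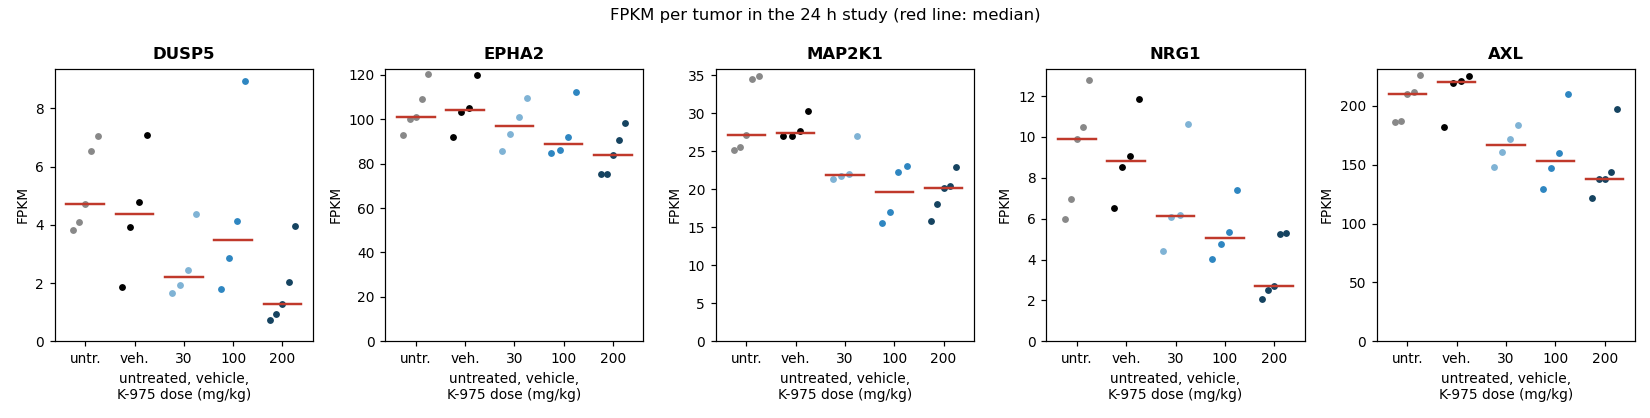
FPKM at 24 h by arm, 1 point per tumor with a line at the median, for DUSP5, EPHA2, MAP2K1, NRG1 and AXL (linear axes from 0). Tumors with 200 mg/kg lie low in DUSP5 and EPHA2 but overlap with vehicle, whereas in MAP2K1 and NRG1 they lie wholly below vehicle.

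The 95% intervals of the other 8 genes at 200 mg/kg and 24 h all held 0. PHLDA1 stood at 13.2, 14.6, 16.6 and 17.9 FPKM with vehicle and at 6.67, 8.99, 10.7, 11.5 and 21.7 FPKM with 200 mg/kg. Here 4 treated tumors lay below and 1 above all vehicle tumors, and the log2 difference was -0.45 (95% interval -1.10 to 0.21, limma adjusted p = 0.454). The high tumor was replicate 2, which was also the highest of its group in DUSP5, DUSP6 and EPHA2.

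Among the phosphatases, DUSP6 had 2.61, 3.47, 3.71 and 6.44 FPKM with vehicle and 3.34, 4.40, 4.76, 5.10 and 6.23 FPKM with 200 mg/kg, so all treated tumors lay inside the vehicle range. Its log2 difference was 0.22, with an interval of -0.53 to 0.97. DUSP4 had a difference of -0.24 (-0.67 to 0.19), with 3 of 5 treated tumors below all vehicle tumors. Of the 3 phosphatases, DUSP6 alone had a positive estimate, which turned to -0.037 with untreated tumors as the control.

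The inhibitors SPRY2, SPRY4 and SPRED1 had log2 differences of -0.013 (-0.50 to 0.47), 0.24 (-0.28 to 0.76) and -0.049 (-0.33 to 0.24). The ETS factors ETV4 and ETV5 had -0.086 (-0.50 to 0.33) and 0.26 (-0.21 to 0.72). The interval of SPRED1 was the narrowest of these 5 genes.

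**Figure D3:**
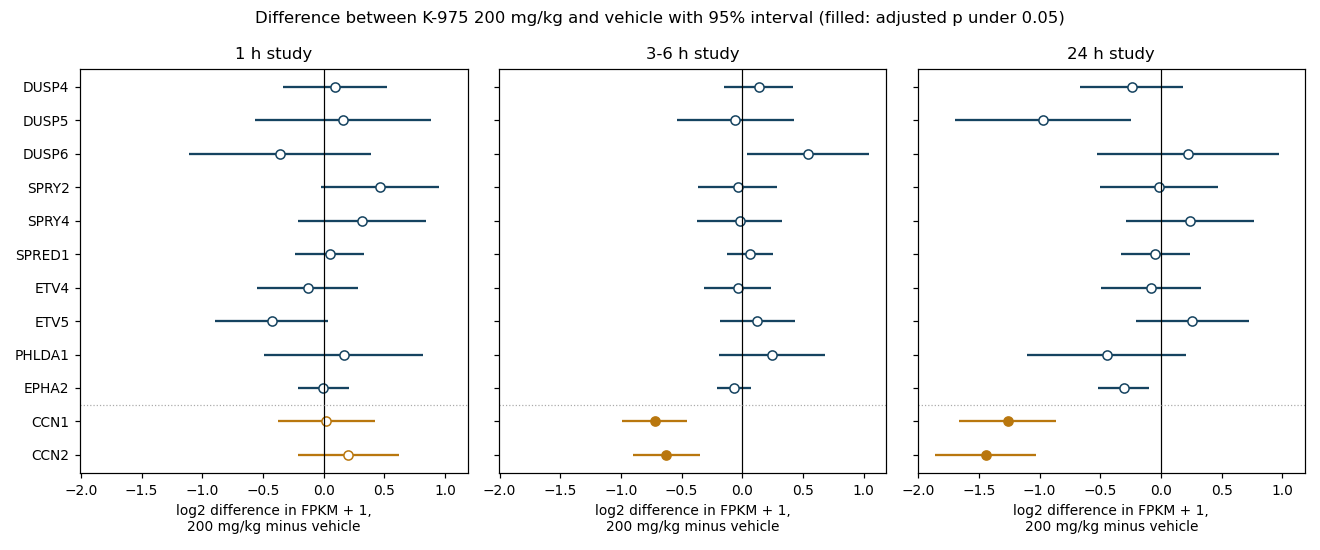
Log2 difference of 200 mg/kg from vehicle for each of the 10 genes and the TEAD targets CCN1 and CCN2 at 1 h, 3-6 h and 24 h, on the log2(FPKM + 1) scale, with 95% intervals from limma (filled points have an adjusted p under 0.05). At 24 h the intervals of DUSP5 (-1.70 to -0.25) and EPHA2 (-0.52 to -0.10) lie below 0 without passing the adjusted threshold.

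At the lower doses and 24 h no member had an unadjusted p under 0.05, against 14.1% of all genes at 100 mg/kg and 10% at 30 mg/kg. The medians of the 10 differences were -0.088 and -0.072, against 0.029 and 0.019 for all genes. EPHA2 had log2 differences of -0.16 (95% interval -0.39 to 0.057) at 100 mg/kg and -0.11 (-0.33 to 0.11) at 30 mg/kg. DUSP5 did not follow the dose, with -0.067 (-0.83 to 0.70) at 100 mg/kg, where the tumors held 1.80, 2.86, 4.12 and 8.96 FPKM, and -0.55 (-1.31 to 0.21) at 30 mg/kg. A linear trend over vehicle and the 3 doses, in equal steps, gave -0.098 per step for EPHA2 (-0.16 to -0.031, limma adjusted p = 0.0605) and -0.24 for DUSP5 (adjusted p = 0.198). None of the 10 passed in this trend, against 7.11% of all genes (3.67% upward and 3.44% downward). The 3 doses share their vehicle tumors.

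At 3-6 h, DUSP6 was the only member with an unadjusted p under 0.05 at 200 mg/kg, against 7.23% of all genes. It ranged from 0.674 to 4.55 FPKM with a median of 1.92 in 10 vehicle tumors, and from 1.06 to 6.90 with a median of 4.38 in 10 treated tumors. The groups overlapped, with 3 of 10 treated tumors above all vehicle tumors. The estimate was 0.54 (95% interval 0.042 to 1.04, limma adjusted p = 0.633).

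By cage group, DUSP6 stood at 1.28, 2.69, 4.35, 4.41 and 4.89 FPKM in cage 4 and at 1.06, 1.94, 4.41, 6.82 and 6.90 FPKM in cage 5, both at 200 mg/kg. The vehicle cages held 0.674 to 1.94 FPKM (cage 2) and 1.91 to 4.55 FPKM (cage 3). The spread within a cage was as wide as the difference between treated and vehicle tumors. The differences of the 2 treated cages from all vehicle tumors were 0.49 (-0.12 to 1.10) and 0.59 (-0.021 to 1.20). DUSP6 also had the lowest p of the trend with dose at 3-6 h, 0.22 per step (0.063 to 0.38, limma adjusted p = 0.305), with none of the 10 past the threshold against 0.414% of all genes (0.107% upward and 0.307% downward).

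The other 9 genes at 200 mg/kg and 3-6 h had log2 differences from -0.067 (EPHA2, -0.21 to 0.074) to 0.24 (PHLDA1, -0.19 to 0.68). DUSP5 was at -0.060 (-0.54 to 0.42) and DUSP4 at 0.13 (-0.15 to 0.42). At 100 mg/kg they ranged from -0.19 (ETV5) to 0.34 (DUSP6), and the highest, DUSP6, had an interval of -0.16 to 0.84. With 30 mg/kg all 10 estimates lay below 0, with a median of -0.17 against 0.012 for all genes, and none had an unadjusted p under 0.05, against 7.03% of all genes. The lowest was DUSP5 with -0.47 (-0.95 to 0.010, limma adjusted p = 0.719), and it held 0.623 to 3.54 FPKM (median 1.40) against 0.778 to 6.14 (median 2.23) with vehicle. Because the genes varied together between tumors, as described below, their signs are not independent of each other.

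In the 6 treated cages taken singly, 0 of the 10 genes passed, against 0.00767%, 0.276%, 0%, 1.33%, 0% and 0.0307% of all genes in cages 4 to 9. The only unadjusted p under 0.05 was in cage 7, where 13.5% of all genes had one. It was that of EPHA2 (100 mg/kg), with 76.5, 77.1, 80.6, 83.7 and 91.3 FPKM against 81.8 to 121 (median 97.2) with vehicle. The estimate was -0.22 (95% interval -0.39 to -0.049, limma adjusted p = 0.206). The vehicle cages themselves stood apart, at 96.9 to 121 FPKM (cage 2) and 81.8 to 101 FPKM (cage 3), and cage 7 overlapped with the second of these. In sample order cages 3, 5, 7 and 9 stand together, but the labels pair no treated cage with a vehicle cage. Each treated cage was therefore set against both vehicle cages.

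At 1 h 0 of the 10 genes passed at any dose, and neither did CCN1 and CCN2 at 200 mg/kg (limma adjusted p = 1 for each). With an unadjusted p under 0.05 there were 0 members for the highest dose, 2 for the middle and 1 for the lowest, against 3.34%, 4.97% and 4.38% of all genes. SPRY2, the Sprouty inhibitor, had treated tumors at 2.16, 2.18, 2.39 and 2.41 FPKM with 200 mg/kg and vehicle tumors at 0.926, 1.06, 1.36, 1.78 and 1.97 FPKM. These groups did not overlap, as was so, in the same direction, for 0.614% of all genes. The untreated tumors of that study, at 0.785 to 2.75 FPKM, spanned both groups. The estimate was 0.46 (95% interval -0.024 to 0.95, limma adjusted p = 1).

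DUSP6 at 100 mg/kg and 1 h stood at 0.203, 0.903, 1.95, 2.73 and 2.84 FPKM, against 1.90, 3.34, 3.47, 5.64 and 5.65 FPKM with vehicle. The groups overlapped, with 2 of 5 treated tumors below all vehicle tumors, and the log2 difference was -0.94 (-1.64 to -0.23, limma adjusted p = 0.953). At 200 mg/kg it was -0.36 (-1.11 to 0.39), so the estimate did not grow with dose. EPHA2 had 0.22 (0.024 to 0.42) at 100 mg/kg and 0.21 (0.0067 to 0.40) at 30 mg/kg, with 3 of 5 tumors above all vehicle tumors at each dose, while the interval at 200 mg/kg was -0.21 to 0.21. ETV5 had 0.33 (-0.11 to 0.76) at 30 mg/kg and -0.43 (-0.89 to 0.038) at 200 mg/kg.

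Effects of 200 mg/kg in the 3 studies were set against each other by testing their difference. None of the 10 passed, against 0.583% of all genes for 24 h minus 1 h (0.261% positive and 0.322% negative), 1.72% for 24 h minus 3-6 h (0.729% and 0.99%) and 0% for 3-6 h minus 1 h. An unadjusted p under 0.05 was found in 4 tests of 3 genes. The largest was DUSP5, with -1.14 for 24 h minus 1 h (limma adjusted p = 0.318) and -0.91 for 24 h minus 3-6 h (adjusted p = 0.273). Vehicle and untreated tumors were set against each other as a background, and 0 of the 10 genes passed in each study, as did 0% of all genes. At an unadjusted p under 0.05 there were 0 members in these comparisons, against 4.73% of all genes at 1 h, 4.83% at 3-6 h and 4.2% at 24 h. The largest difference between vehicle and untreated tumors was 0.36 for PHLDA1 at 3-6 h (95% interval -0.17 to 0.90).

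Other genes of the pathway were examined from fixed lists. Of 14 further ERK output and feedback genes tested (of 17 listed), 0 passed at 200 mg/kg and 24 h, although their median was -0.48 and 12 of 14 lay below 0, against a median of 0.037 for all genes, and 4 had an unadjusted p under 0.05, against 21.9% of all genes. None of 6 other MAPK phosphatases (of 7) and none of 5 ephrin ligands of EPHA2 passed, with medians of 0.098 and 0.15. Of 26 genes of the RAS-RAF-MEK-ERK cascade (of 27), 1 was lower, and of 23 upstream receptors and ligands (of 26), 2 were lower and 0 higher, against 3.61% of all genes lower and 3.8% higher.

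The cascade gene was MAP2K1, which codes for the kinase MEK1. It stood at 27.0, 27.0, 27.7 and 30.3 FPKM with vehicle and at 15.8, 18, 20.2, 20.5 and 22.9 FPKM with 200 mg/kg, without overlap, as was so in that direction for 3.22% of all genes. Its log2 difference was -0.51 (95% interval -0.77 to -0.25, limma adjusted p = 0.00802). At 100 mg/kg it was -0.52 (adjusted p = 0.0361), with 15.6, 17.0, 22.3 and 23.1 FPKM. That call was lost without any 1 of 6 of the 8 tumors (limma adjusted p = 0.0658 to 0.242), with only the groups compared (0.184), with no filter (0.0509) and with all 94 libraries (0.602). The control tumors of the 24 h study were themselves high in MAP2K1, at 25.2 to 34.9 FPKM when untreated, against 17.9 to 29.6 FPKM untreated at 3-6 h and 20.6 to 24.2 FPKM at 1 h, and the treated tumors overlapped with these.

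The ligand was NRG1 (neuregulin 1, which activates ERBB3), at 6.55, 8.53, 9.09 and 11.8 FPKM with vehicle and 2.05, 2.52, 2.68, 5.23 and 5.29 FPKM with 200 mg/kg. There was no overlap between treated and vehicle tumors, and the log2 difference was -1.18 (95% interval -1.70 to -0.65, limma adjusted p = 0.00258). The receptor was AXL, which the study's signature of YAP1-TEAD activity also lists as a positive effector. AXL stood at 182, 219, 221 and 225 FPKM with vehicle and 121, 138, 138, 144 and 198 FPKM with 200 mg/kg. Only the highest treated tumor overlapped with vehicle, and there was a log2 difference of -0.53 (-0.76 to -0.30, adjusted p = 0.00186). None of these 3 genes passed with all 94 libraries (limma adjusted p = 1 for MAP2K1 and AXL and 0.506 for NRG1). MAP2K1 did not pass without replicate 1 of 200 mg/kg (adjusted p = 0.0518).

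At 3-6 h, 0 genes of these lists passed at any dose. In cage 7 (100 mg/kg) 3 did, against 1.33% of all genes. CCND1, which codes for cyclin D1, had 90.4, 92.2, 111, 112 and 115 FPKM, all below the 118 to 154 FPKM of the 10 vehicle tumors (log2 difference -0.37, limma adjusted p = 0.0126). The share of all genes without overlap was not computed for single cages. NRG1 had 2.96 to 4.54 FPKM against 2.87 to 11.8 with vehicle (-0.80, adjusted p = 0.035). PDGFRA passed as higher (adjusted p = 0.0424), but was listed at 0 in all vehicle tumors except 1 at 0.582 FPKM, and held 0.163 to 5.87 FPKM in cage 7. None of the 3 passed with all 94 libraries or with untreated tumors as control. Against vehicle cage 2 alone NRG1 had -0.42 (limma adjusted p = 0.501) and PDGFRA an adjusted p of 0.0706, and against vehicle cage 3 alone CCND1 had 0.206 and PDGFRA 0.157. CCND1 also did not pass without replicate 1 or replicate 5 of cage 7 (adjusted p = 0.0659 and 0.0589). Without replicate 2 of cage 7, PDGFRA had a log2 difference of 0.47 in place of 0.92 (adjusted p = 0.381).

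Between studies, the control tumors themselves differed, and this was compared after the values had been seen. In the mean of vehicle and untreated tumors, 4 of the 10 genes were higher in the 24 h study than in the 3-6 h study and 0 were lower, against 5.45% of all genes higher and 6.77% lower (12.2% in all). There were 9 and 15 such tumors. PHLDA1 ranged from 9.35 to 20.3 FPKM (median 16.5) at 24 h and from 3.24 to 14.5 (median 6.74) at 3-6 h. Its log2 difference was 1.05 (95% interval 0.63 to 1.47, limma adjusted p = 0.000297), with 6 of 9 tumors above all 15.

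All 3 ERK phosphatases were among the 4. DUSP4 ranged from 1.87 to 3.86 FPKM (median 2.73) at 24 h and from 0.180 to 2.99 (median 1.27) at 3-6 h. Its log2 difference was 0.70 (95% interval 0.43 to 0.98, limma adjusted p = 0.000204), although only 2 of 9 tumors lay above all 15. DUSP6 had a median of 3.71 FPKM (2.61 to 8.96) against 1.94 (0.674 to 4.55), a difference of 0.81 (0.33 to 1.29, adjusted p = 0.0175).

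DUSP5 had a median of 4.70 FPKM (1.87 to 7.09) against 1.88 (0.778 to 6.14), a difference of 0.71 (0.24 to 1.18, limma adjusted p = 0.0331). This call was the least stable of the 4. It was lost without any 1 of 8 of the 24 control tumors, among them vehicle replicate 1 at 24 h (0.60, adjusted p = 0.110). DUSP6 lost it without vehicle replicate 4 at 24 h (adjusted p = 0.0594). With all 94 libraries, DUSP4 and PHLDA1 passed (adjusted p = 0.0336 and 0.0278), and DUSP5 and DUSP6 did not (0.310 and 0.235).

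The other 6 genes did not pass. Their log2 differences were -0.075 for SPRY2 (95% interval -0.39 to 0.24), -0.13 for SPRY4 (-0.47 to 0.20), 0.0065 for SPRED1 (-0.18 to 0.19), 0.12 for ETV4 (-0.14 to 0.39), -0.013 for ETV5 (-0.31 to 0.29) and 0.055 for EPHA2 (-0.082 to 0.19). Whether these 6 genes differed from the 4 in this respect was not tested. Among the further ERK output genes, 4 of 14 were higher in the 24 h study and 2 were lower. FOSL1, an AP-1 subunit, had 85.4 to 190 FPKM at 24 h and 19.8 to 133 at 3-6 h (1.27, limma adjusted p = 0.00083). ERRFI1, a feedback inhibitor of EGFR, had 15.3 to 68.2 FPKM and 5.84 to 54.6 (1.19, adjusted p = 0.00156). SPRY1 went the other way, with 2.28 to 4.10 FPKM against 3.33 to 8.08 (-0.66, adjusted p = 0.0211). None of the 6 passed with all 94 libraries, where FOSL1, ERRFI1 and SPRY1 had limma adjusted p = 0.107, 0.0753 and 0.406.

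Other measures differed between these control tumors as well. Genes at 1 FPKM or more numbered 11344 to 11443 at 24 h and 11420 to 11593 at 3-6 h. The summed mesothelial genes were 1942 to 2637 FPKM and 2059 to 3109 FPKM. The summed myeloid list, nearly all of it the lysosomal gene CD68, was 145 to 267 FPKM and 44.6 to 268 FPKM. Their part in the differences was not tested, and the studies were also separate sets of mice.

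Against the 1 h study, 0 of the 10 genes passed in control tumors of the 24 h study, against 0.245% of all genes (0.115% higher and 0.13% lower), and 4 had an unadjusted p under 0.05, against 13.2%. All 10 estimates were above 0, led by PHLDA1 with 0.77 (95% interval 0.32 to 1.22, limma adjusted p = 0.105) and DUSP4 with 0.55 (0.26 to 0.84, adjusted p = 0.0707). Without untreated replicate 2 of the 24 h study, 3 genes passed, a count given without the share of all genes in that fit. Between the 3-6 h and 1 h studies, 0 passed against 2.16% of all genes (1.4% higher and 0.759% lower), 3 had an unadjusted p under 0.05 against 14.9%, and SPRY4 had 0.44 (0.11 to 0.76, adjusted p = 0.153).

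**Figure D4:**
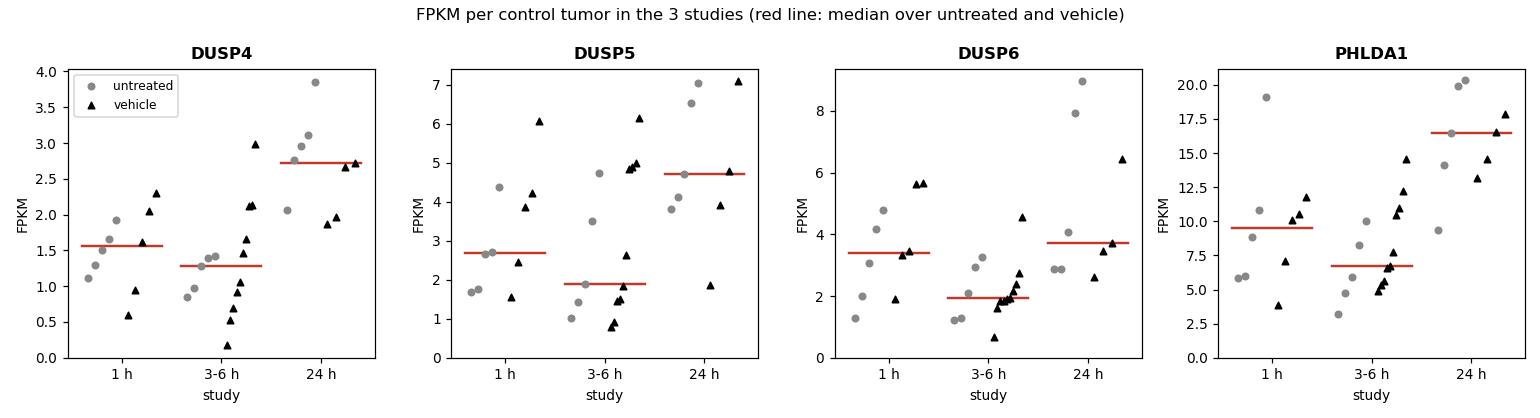
FPKM of DUSP4, DUSP5, DUSP6 and PHLDA1 in control tumors of the 1 h, 3-6 h and 24 h studies (circles untreated, triangles vehicle), 1 point per tumor with a line at the median of both, linear axes from 0. PHLDA1 has medians of 9.48, 6.74 and 16.5 FPKM in the 3 studies, with 6 of 9 tumors of the 24 h study above all 15 of the 3-6 h study.

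How the genes varied from tumor to tumor within a group was examined on log2(FPKM + 1) with each group's mean removed, over 91 tumors, with shuffles within groups. Of 45 pairs, 43 had a positive Pearson's r and 17 passed an adjusted permutation p of 0.05, all of them positive. By Spearman's rho 18 passed, and 16 passed by both. The median r was 0.218. With all 94 libraries 41 pairs passed. Pairs of other genes were not tested in this way, so no share over all genes can be set beside these counts. As a scale, the r of DUSP4 with DUSP6, 0.218, lay above that of 89.5% of tested genes with DUSP6.

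PHLDA1 was in 7 of the 17 pairs. It varied with EPHA2 (r = 0.675, rho = 0.651, adjusted permutation p = 0.00015 for each), and r was 0.704 within the 1 h study, 0.586 within 3-6 h and 0.780 within 24 h. Without the 2 tumors farthest from the median r was 0.644. With DUSP5 r was 0.565 (rho = 0.540, adjusted permutation p = 0.00015 for each), and 0.458 to 0.744 within the studies. With DUSP6 r was 0.553 (rho = 0.554, adjusted permutation p = 0.00015 for each), but only 0.126 within the 24 h study, against 0.753 and 0.592 in the others. Without 2 tumors these were 0.540 and 0.528. The smallest p that 100000 shuffles can give is 1e-05, and 0.00015 is its adjusted value when 3 pairs reach it.

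Pairs among SPRY4, SPRED1 and DUSP4 also passed, but they were not separate from the pairs of PHLDA1. SPRED1 and SPRY4 both passed with PHLDA1 (r = 0.396 and 0.362, adjusted permutation p = 0.0027 and 0.0109). Nor did the inhibitors all pass with each other. SPRY2 passed with SPRED1 but not with SPRY4 or DUSP4 (r = 0.155 and 0.196, adjusted permutation p = 0.259 and 0.199). DUSP5 did not pass with SPRED1 or SPRY4 (r = 0.00231 and 0.0539). SPRY4 varied with SPRED1 (r = 0.457, rho = 0.473, adjusted permutation p = 0.000337 and 0.000225), and both varied with DUSP4 (r = 0.419 and 0.444, rho = 0.461 and 0.449, adjusted permutation p = 0.00197 and 0.00036 for r and 0.0006 for each rho). Within the 1 h, 3-6 h and 24 h studies r of SPRY4 with SPRED1 was 0.456, 0.586 and 0.206, and without 2 tumors it was 0.436. The closely related ETS factors ETV4 and ETV5 did not pass as a pair (r = 0.151, adjusted permutation p = 0.289), nor did DUSP4 with DUSP5 (r = -0.0571, adjusted permutation p = 0.705).

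**Figure D5:**
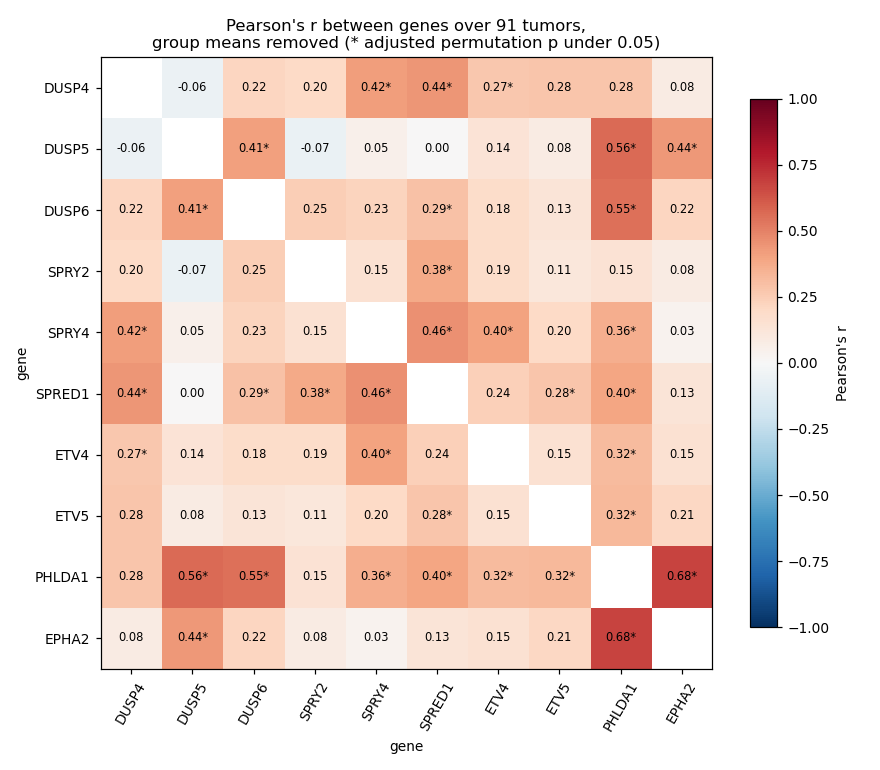
Pearson's r between the 10 genes over 91 tumors with group means removed, as colour and number in each cell (a star marks an adjusted permutation p under 0.05). PHLDA1 has the highest values, 0.675 with EPHA2, 0.565 with DUSP5 and 0.553 with DUSP6.

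Among the genes most like DUSP6 over the same residuals, apart from the 10, were TMEM132A (r = 0.632), RNF19B (0.608), SLC39A14 (0.602) and NT5E (0.596), as a description over 91 tumors. PHLDA1 (0.553) and DUSP5 (0.413) lay above 99.8% and 98.2% of all genes in their likeness to DUSP6, and ETV5 (0.130) above 78.3%.

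Levels also followed the makeup of the libraries. After the values had been seen, 50 relations of 10 genes to 4 marker sums and the number of genes were computed. Of these, 35 had an adjusted permutation p under 0.05. The relations were not computed for other genes, so whether the 10 follow library makeup more than other genes do was not tested. PHLDA1 was higher in tumors with low mesothelial sums (r = -0.659, rho = -0.656, adjusted permutation p = 7.14e-05 and 6.25e-05), with r of -0.716, -0.623 and -0.694 within the 1 h, 3-6 h and 24 h studies and -0.638 without 2 tumors. It went with the myeloid sum (r = 0.638, rho = 0.680, adjusted permutation p = 7.14e-05 and 6.25e-05), with r of 0.696, 0.697 and 0.636 within the studies and 0.644 without 2 tumors. That sum was mostly CD68 (median 139 FPKM), with LYZ at 0 in 83 of 91 tumors. The fibroblast and endothelial sums went the other way, but these too were mostly 1 gene each, COL1A1 (median 560 FPKM) and KDR (63.9 FPKM). With the fibroblast sum PHLDA1 had r = -0.627 (rho = -0.636, adjusted permutation p = 7.14e-05 and 6.25e-05), and -0.691, -0.513 and -0.752 within the studies. With the endothelial sum it had r = -0.311 (rho = -0.283, adjusted permutation p = 0.019 and 0.0258).

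DUSP5 was lower in tumors with more genes reaching 1 FPKM (r = -0.491, rho = -0.426, adjusted permutation p = 0.000111 and 0.00105), with -0.384, -0.542 and -0.480 within the studies and -0.428 without 2 tumors. EPHA2 had r = -0.400 with the same number (rho = -0.391, adjusted permutation p = 0.0015 and 0.00218), with -0.620, -0.245 and -0.478 within the studies and -0.355 without 2 tumors. All of these measures come from the same libraries and share their scaling to the total.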

How the data were processed

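RNA of 94 NCI-H226 xenograft tumors, 1 per mouse, was enriched with capture probes and sequenced. The authors deposited FPKM per gene and library. STAR and GRCh38 are named in the submitters' processing notes, and the quantification tool, the annotation and the treatment of mouse reads are not given in the sources used here. Scaling to the total ties the genes of a library to each other. Low values were not whole multiples of a unit, so reads could not be recovered.

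Of 20555 entries, 316 further entries of 284 repeated gene IDs were left out, which kept 20239 IDs, and 32 blank cells in 21 genes were read as 0. Loci are those of the table, counted from 1, in GRCh38. Groups came from the labels (19, with cage groups kept apart at 3-6 h), and replicate numbers, given in accession order within a group, pair no tumors. Separate mice are the replicates.

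Differences were tested two-sided with limma 3.58.1 (R 4.3.3; lmFit, eBayes with trend and robust) on log2(FPKM + 1), for the 13036 genes with 1 FPKM or more in 4 or more libraries. There was 1 coefficient per group over the 91 libraries in which 10000 or more genes reached 1 FPKM. Benjamini-Hochberg adjustment ran over all genes of a comparison. At 3-6 h the mean of 2 cage groups was compared with the mean of both vehicle cage groups. Correlations used 100000 shuffles within groups, adjusted over 45 pairs and over 50 relations. Both were tested on simulated data.

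The 10 genes, the gene lists (further ERK output, other MAPK phosphatases, cascade, receptors and ligands, ephrin ligands, cell type markers) and the limit on libraries were chosen with earlier results of these data known. Genes named beside the 10 are list genes past the threshold in a dose or cage comparison, CCN1 and CCN2, and the 5 genes most like DUSP6, of which 1 is not reported here. FOSL1, ERRFI1 and SPRY1 were named after their values were seen. Alternatives were all 94 libraries, a pseudocount of 0.1, no filter, other scalings, other controls, only the groups compared and leaving out each tumor. Columns of other samples not used numbered 0.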

Additional observations from a re-analysis of the deposited data

Results flagged for a closer look

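In 190 sets of tumors (10 genes in 19 groups), 8 sets (4.21%) had 1 tumor far from the rest by Dixon's ratio of gap to range. Chance gives about 1 in 20. In vehicle cage 2 at 3-6 h, replicate 5 was the highest in both DUSP5 (4.98 FPKM, next 1.83) and EPHA2 (121 FPKM, next 101), and replicate 4 was the lowest in DUSP6 (0.674 FPKM, next 1.61). Replicate 5 in cage 6 (100 mg/kg, 3-6 h) had 6.14 FPKM of DUSP6 with the next tumor at 3.07. Replicate 2 in cage 4 (200 mg/kg, 3-6 h) had 1.59 FPKM of DUSP4 with the next at 1.09. At 24 h, ETV4 was high in vehicle replicate 3 (15.3 FPKM, next 11.8) and low in replicate 4 of 200 mg/kg (8.82 FPKM, next 12.2), and SPRY4 was high in replicate 2 of 100 mg/kg (3.77 FPKM, next 2.04). None of the 10 genes passed limma's test of a difference between studies in the effect of 200 mg/kg, with 4 tests of 3 genes at an unadjusted p under 0.05.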

How the results depend on the processing

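No paired analysis was possible because the replicate numbers used here only name tumors in accession order and come from no label. Of 714 counts of called genes under alternatives, 693 stayed within 1.5 times the reported count, and 21 moved. For 200 mg/kg at 24 h (0 called) the count was 1 with median centring, 2 with untreated tumors as control and 2 with both controls together, and 0 to 2 when 1 tumor was left out. For the trend at 24 h it was 1, 1 and 2 under the same 3 settings and 0 to 1 without 1 tumor (1 without vehicle replicate 4, replicate 2 of 200 mg/kg, replicate 4 of 100 mg/kg or replicate 4 of 30 mg/kg). With untreated tumors as control it was 1 for 24 h minus 1 h and 1 for cage 7. With all 94 libraries it was 2 at 30 mg/kg and 24 h, where 2960 of 13041 genes passed, 2 in place of 4 for control tumors of 24 h against 3-6 h (3 to 4 without 1 tumor), and 41 in place of 17 correlated pairs. Control tumors of 24 h against 1 h gave 0 to 3 without 1 tumor (3, 2, 1 and 1 without untreated replicate 2 at 24 h, untreated replicate 2 at 1 h, and vehicle replicates 2 and 4 at 1 h).

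At 200 mg/kg and 24 h, 4 small differences turned direction. SPRY2 was 0.086 with untreated tumors, 0.036 with both controls and -0.13 to 0.17 without 1 tumor, DUSP6 was -0.037 with untreated tumors, and without 1 tumor ETV4 ranged from -0.13 to 0.0078 and SPRED1 from -0.14 to 0.058. Of 304 values of single members, 273 kept their side of the threshold and their direction, 13 lost a call, 9 gained one and 9 turned. Of 272 values of the pathway genes, 51 lost the call and 0 turned. MAP2K1 at 100 mg/kg and 24 h lost it without 6 of 8 tumors (-0.60 to -0.42), and in cage 7 PDGFRA lost it without 10 and NRG1 without 8 of 15. The causes were not tested. The median difference of all genes stayed within 0.04 in the dose comparisons. Depth is unknown, so no counting error could be given, and values below about 1 FPKM are the least certain.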
